A study of Mus musculus with 4 samples.

Results

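The 10 genes described here are Ccnd1, Ccnd2 and Ccnd3, which encode the D-type cyclins, Cdk4 and Cdk6, which encode their partner kinases, Cdkn1a, Cdkn1b, Cdkn1c and Cdkn2c, which encode the CDK inhibitors p21, p27, p57 and p18, and Rb1, which encodes the retinoblastoma protein. They were chosen by name, with earlier results of these data known, and all 10 were found among the 36528 gene rows of the deposited tables. The series holds droplet single-cell RNA libraries of C57BL/6 mouse cortex at E16.5, 2 of genotype COP1 KO and 2 of genotype HET. The labels do not say whether the libraries came from separate animals, so p-values measure the spread between these libraries, which may be technical. The sample titles write CKO for the COP1 KO genotype. The labels define neither HET nor CKO, and they name no allele, Cre driver or litter. The design compares the genotypes. The genes below were followed across cell classes, across mitotic states of progenitors and between the genotypes.

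D-type cyclins are made in response to mitogens and bind CDK4 or CDK6. The active kinases phosphorylate the retinoblastoma protein, which then releases E2F transcription factors and lets a cell pass from G1 into S phase. p18 belongs to the INK4 inhibitors, which block CDK4 and CDK6 directly, while p21, p27 and p57 belong to the CIP/KIP inhibitors, which act on several cyclin-kinase complexes. In the developing cortex this switch sets whether radial glia, the stem cells that line the ventricle, and intermediate progenitors, their neuron-producing daughters, divide again or leave the cycle. COP1 recognises substrates for a ubiquitin ligase, among them the transcription factors c-JUN, ETV1, ETV4 and ETV5. Ccnd1 is a known target of AP-1 and ETS factors.

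The COP1 KO libraries held 28049007 and 28988265 counts and the HET libraries 28327090 and 28071382. After filtering, 5195 and 4729 COP1 KO cells and 4545 and 4314 HET cells remained. The tables share 181 barcode sequences between libraries. Cells of all libraries were clustered together, and a cluster whose markers pointed to 1 cell type carries that name followed by "-like". The tissue is labelled cortex, but 403 to 457 cells a library were striatal projection neuron-like and 224 to 362 were ganglionic eminence progenitor-like, a class whose marker list includes mitotic genes. Clusters 1, 17 and 19, whose leading genes held more markers of another type than of their own, and the unnamed clusters 2, 12 and 21 are given by number. Cluster 1 was nearest to excitatory neurons, cluster 17 to cortical interneurons and cluster 19 to intermediate progenitors. The leading genes of cluster 19 held Neurog2 and the mitotic genes Top2a, Ube2c and Ccnb1. Its markers of another type were Top2a and Ube2c, which are on the ganglionic eminence progenitor list. Some classes were small. Endothelial-like cells numbered 25 and 9 in COP1 KO and 12 and 17 in HET libraries. Microglia-like cells numbered 28 and 24 in COP1 KO and 18 and 16 in HET libraries, and fibroblast-like cells 24 and 30 in COP1 KO and 21 and 17 in HET libraries. Levels are given as CPM, the summed counts of a class in a library scaled to a common total. Oligodendrocyte precursor-like cells also carried the 12 radial glia markers. These summed there to 16294 and 19913 CPM in COP1 KO and 20339 and 22135 CPM in HET libraries, against 20237 to 23257 CPM in radial glia-like cells. The 8 oligodendrocyte precursor markers summed there to 2404 and 2261 CPM in COP1 KO and 2188 and 2474 CPM in HET libraries. The counts come from the 3′ ends of transcripts, and levels are compared here within a gene, not between genes. In these sums, fewer cells of a type inside a class and less RNA per cell cannot be told apart.

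Rfwd2, the older symbol of the targeted gene Cop1, had 30.5 and 29.7 CPM in the COP1 KO libraries, against 32.0 and 39.2 CPM in the HET libraries. Its log2 change of −0.22 (SE 0.11) did not pass (edgeR adjusted p = 0.53). The labels do not say which part of the gene was deleted, and counts from its 3′ end outside that part would check nothing. Cdk4 shares nearly all of its counts with a row that carries only a number (81223 against 81158 UMIs in the kept cells, equal in 99.7% of cells), so its level is uncertain. In the annotation (GENCODE M21, GRCm38) 8 of the 10 genes overlap another gene, all but Cdkn1b and Cdkn2c, and the sources do not say whether counting used the strand. The gene that overlaps Ccnd1 is listed here as Oraov1. It had 16.1 and 19.98 CPM in COP1 KO radial glia-like cells and 20.01 and 23.4 CPM in HET radial glia-like cells, and it did not pass the test there (log2 change −0.22, SE 0.23, edgeR adjusted p = 0.72).

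RefSeq promoter sequences (GRCm38.p6) were given for 6 of the 10 genes, Cdk4, Cdk6, Cdkn1a, Cdkn1b, Cdkn2c and Ccnd3. Each was searched on both strands, over the 250 bases before the start, for AP-1 (TGANTCA), ETS (CCGGAAG), E2F (TTTCCCGC, TTTGGCGC, TTTCGCGC or TTTGCCGC) and the E-box CACGTG, to which MYC-family proteins bind. Of 32851 promoters of this length, 6.75% held the AP-1 letters, 6.91% the ETS letters, 1.86% an E2F form and 6.02% the E-box. The E-box was present in the promoters of both kinases, 1 time in Cdk6 (chr5:3343643-3343892, plus strand), at 220 bases before the start, and 4 times in Cdk4 (chr10:127063285-127063534, plus strand), at 172, 118, 98 and 11 bases before it. One of the 2 Ccnd3 starts held 1 ETS match, at 138 bases before it, and the other sequences held none of these letters. The kinase promoters are shown with the E-box in capitals, since Cdk6 was the member that passed under every alternative tried in radial glia-like cells. Whether these sites are bound, or bear on the level of either kinase, was not tested. In intermediate progenitor-like cells the libraries of the genotypes overlapped for Cdk6.
Cdk6: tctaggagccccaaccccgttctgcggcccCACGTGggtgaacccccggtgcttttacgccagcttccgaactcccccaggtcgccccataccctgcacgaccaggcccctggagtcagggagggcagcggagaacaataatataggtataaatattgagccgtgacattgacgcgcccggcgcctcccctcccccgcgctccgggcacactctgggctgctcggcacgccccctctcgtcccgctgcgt
Cdk4: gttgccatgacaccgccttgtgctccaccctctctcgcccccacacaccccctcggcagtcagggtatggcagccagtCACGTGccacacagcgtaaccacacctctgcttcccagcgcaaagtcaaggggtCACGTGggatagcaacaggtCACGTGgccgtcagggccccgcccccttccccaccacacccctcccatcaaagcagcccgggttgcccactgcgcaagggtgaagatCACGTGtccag

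The 3 D cyclins were highest in different classes. Ccnd1 (chromosome 7, 144929931 to 144939831) was highest in oligodendrocyte precursor-like cells, where it averaged 373 CPM ± 159 (SD, n = 4 libraries), followed by endothelial-like cells at 204 CPM ± 54.8 and microglia-like cells at 140 CPM ± 18.0. Radial glia-like cells held 121 CPM ± 23.9. The libraries of each neighbour in this order overlapped down to intermediate progenitor-like cells, at 33.4 CPM. No library of cluster 2, the next in order, reached those of intermediate progenitor-like cells, and means were 7.13 CPM or less in the neuron-like classes and the remaining clusters. Ccnd2 (chromosome 6, 127125162 to 127152188) stood out in ganglionic eminence progenitor-like cells, at 4208 to 5249 CPM over the 4 libraries. Cluster 19, radial glia-like, oligodendrocyte precursor-like and intermediate progenitor-like cells followed at 1861, 1578, 1559 and 1521 CPM, and these 4 overlapped. Ccnd3 was highest in fibroblast-like cells, at 605 CPM ± 74.0, and next in endothelial-like cells, at 265 CPM ± 38.1. Ccnd3 was thus higher in every library of fibroblast-like and endothelial-like cells than in any neural class.

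The kinases and Rb1 were highest in cluster 19. Cdk4, the broadly expressed D-cyclin kinase, was highest in cluster 19 and intermediate progenitor-like cells, at 1554 CPM ± 59.1 and 1530 CPM ± 55.2, which overlapped. It was still 652 CPM ± 12.6 in excitatory neuron-like cells. Cdk6, its paralog, was 397 CPM ± 52.8 in cluster 19, above every library of intermediate progenitor-like cells, at 238 CPM ± 45.4. It was 158 CPM ± 44.9 in radial glia-like cells and 3.77 CPM ± 0.507 in excitatory neuron-like cells. Unlike Cdk4, it was near 0 in the named neuron-like classes. It was 161 CPM ± 3.83 in the unnamed cluster 2, whose best marker scores were for excitatory neurons and intermediate progenitors. Rb1 was low throughout, with 77.1 CPM ± 8.67 in cluster 19 and means of 12.4 to 57.2 CPM in the other classes and clusters.

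The inhibitors divided along other lines. Cdkn1c, an imprinted gene in mouse, was 3167 to 5164 CPM in fibroblast-like cells, above every library of every other class. It was 240 CPM ± 12.7 in excitatory neuron-like cells, 215 CPM ± 60.3 in intermediate progenitor-like cells and 22.4 CPM ± 9.57 in radial glia-like cells. Cdkn1a, a target of p53, was highest in microglia-like, endothelial-like and Cajal-Retzius-like cells, at 352, 335 and 282 CPM, which overlapped, and was 9.23 CPM ± 6.55 in radial glia-like cells. Cdkn2c was 298 CPM ± 43.2 in cluster 19, then 161 CPM ± 14.9 in radial glia-like and 159 CPM ± 15.3 in ganglionic eminence progenitor-like cells, which overlapped, and 1.08 CPM in excitatory neuron-like cells. Cdkn1b was spread widely, from 222 CPM ± 41.4 in cluster 2 to 21.9 CPM in cluster 21. Clusters were built from variable genes that included 7 of the 10 genes, so these levels are a description. With clusters built without the 10 genes and the cell cycle genes, 8 of 10 genes had the same highest class among the 8 named classes with enough cells for the comparison, and the exceptions were Cdkn2c and Rb1. Those classes leave out fibroblast-like, endothelial-like and microglia-like cells and the numbered clusters. Of the highest places described above, this count therefore covers only those of Ccnd1 and Ccnd2.

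**Figure D1:**
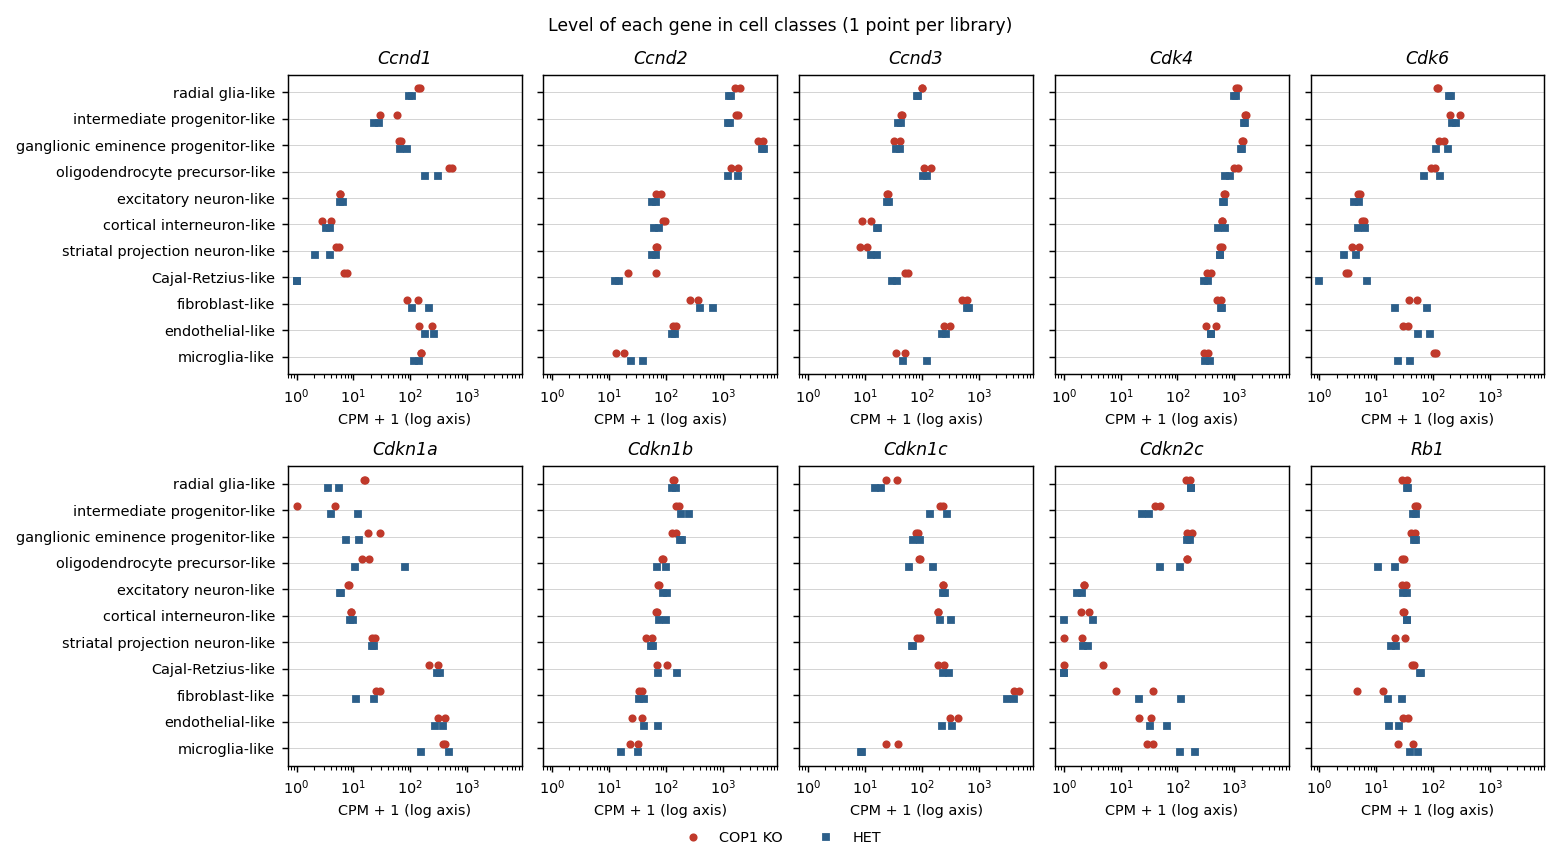
Levels of the 10 genes (CPM + 1, log axis) in 11 cell classes, with 1 point per library, COP1 KO circles above HET squares. Ccnd2 peaks in ganglionic eminence progenitor-like cells, Cdkn1c in fibroblast-like cells, and Cdk6 and Cdkn2c drop to near 0 in the named neuron-like classes while Cdk4 does not.

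Between the genotypes, most of the differences that passed were in radial glia-like cells. There Ccnd1, Ccnd2 and Cdkn1a were higher in COP1 KO cells and Cdk6 was lower, so 4 of 10 genes passed the test, beside 3.07% of the 11613 genes tested in this class. Since the 10 were chosen with earlier results of these data known, this comparison does not test them as a set. Radial glia-like cells numbered 379 and 329 in the COP1 KO libraries and 279 and 296 in the HET libraries. All 10 genes passed the filter on low counts.

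Among the cyclins, Ccnd1 had 133 and 148 CPM in COP1 KO radial glia-like cells, against 94.9 and 107 CPM in HET radial glia-like cells. The libraries did not overlap, and the log2 change was 0.51 (SE 0.11, edgeR adjusted p = 0.032). Ccnd2 had 1969 and 1649 CPM in COP1 KO cells and 1400 and 1295 CPM in HET cells. It too was higher in each COP1 KO library than in either HET library (log2 change 0.47, SE 0.10, edgeR adjusted p = 0.038). Ccnd3 had 100 and 102 CPM in COP1 KO cells and 85.2 and 82.2 CPM in HET cells, but did not pass (log2 change 0.31, SE 0.11, edgeR adjusted p = 0.20). Both cyclin calls were near the threshold. With DESeq2 the adjusted p of Ccnd1 was 0.318, and without HET replicate 1 it was 0.159, while Ccnd2 had an adjusted p of 0.0746 without HET replicate 2 and 0.0915 with doublets kept.

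Among the kinases, Cdk6 (chromosome 5, 3341004 to 3531008) had 117 and 122 CPM in COP1 KO radial glia-like cells, against 192 and 202 CPM in HET radial glia-like cells. It fell in COP1 KO cells with a wide gap between the genotypes (log2 change −0.68, SE 0.09, edgeR adjusted p = 0.0037), and it passed under every alternative tried in this class. Over those that left out 1 library, its log2 change lay between −0.71 and −0.64. Cdk4 had 1150 and 1088 CPM in COP1 KO cells and 1060 and 1003 CPM in HET cells, and did not pass (log2 change 0.16, SE 0.08, edgeR adjusted p = 0.38). Rb1 had 27.4 and 33.2 CPM in COP1 KO cells and 33.3 and 34.6 CPM in HET cells, with an edgeR adjusted p of 0.82.

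Among the inhibitors, Cdkn1a (chromosome 17, 29090979 to 29100722) had 34 and 34 UMIs (15.2 and 14.5 CPM) in COP1 KO radial glia-like cells, against 9 and 6 UMIs (4.62 and 2.60 CPM) in HET radial glia-like cells. Both COP1 KO libraries were higher, from few counts, by 2.10 on the log2 scale with an SE of 0.38 (adjusted p = 0.017 by edgeR). With DESeq2 its adjusted p was 0.125. Cdkn1c had 35.9 and 22.1 CPM in COP1 KO cells and 18.0 and 13.8 CPM in HET cells, without passing (log2 change 0.92, SE 0.29, edgeR adjusted p = 0.16). Its value leaned on 1 library: the log2 change was 0.51 without COP1 KO replicate 1 and 1.26, with an adjusted p of 0.00047, without COP1 KO replicate 2. It also passed with no filter on low counts (adjusted p = 0.0055) and with doublets kept (adjusted p = 0.046). Cdkn1b, at 130 and 136 CPM in COP1 KO cells and 147 and 128 CPM in HET cells, and Cdkn2c, at 140 and 164 CPM in COP1 KO cells and 169 and 173 CPM in HET cells, had log2 changes of −0.01 and −0.13, with edgeR adjusted p of 0.98 and 0.59.

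**Figure D2:**
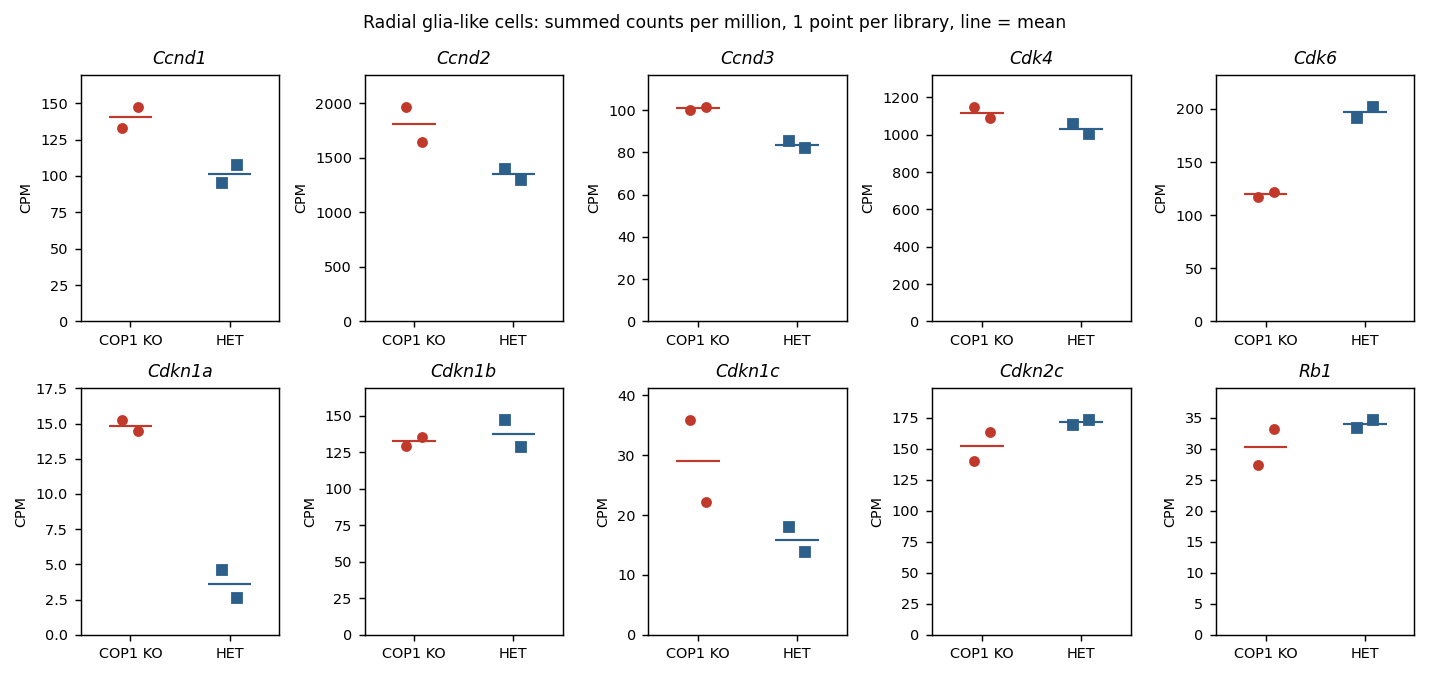
Levels of the 10 genes in radial glia-like cells (CPM, axes from 0), COP1 KO on the left and HET on the right, with 1 point per library and a line at the mean. The libraries of the genotypes do not overlap for Ccnd1, Ccnd2, Cdk6 and Cdkn1a, the 4 genes that passed the test, nor for Ccnd3, Cdk4, Cdkn1c, Cdkn2c and Rb1, which did not pass.

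Libraries of the genotypes failed to overlap for 9 of the 10 genes in this class, beside 45.6% of all genes tested, and a lack of overlap is read here only with the test. Summed marker levels also differed between the genotypes among radial glia-like cells, some higher and some lower in COP1 KO cells. Those of the 9 intermediate progenitor markers, the class with the highest Cdk6 after cluster 19, were 975 and 1037 CPM in COP1 KO cells and 1138 and 1169 CPM in HET cells, with 2 of 9 higher on average in COP1 KO cells. The 10 ganglionic eminence progenitor markers, mitotic genes among them, summed to 1600 and 1717 CPM in COP1 KO cells and 2221 and 2021 CPM in HET cells (2 of 10 higher). The 11 excitatory neuron markers summed to 1204 and 1133 CPM in COP1 KO cells and 1317 and 1250 CPM in HET cells (4 of 11 higher), and the 12 radial glia markers to 21310 and 20237 CPM in COP1 KO cells and 22006 and 23257 CPM in HET cells (4 of 12 higher). None of these 4 lists overlapped between the genotypes.

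Other lists were higher in COP1 KO radial glia-like cells. The 8 endothelial markers summed to 44.4 and 44.2 CPM in COP1 KO cells and 31.3 and 31.1 CPM in HET cells (7 of 8 higher). The 6 fibroblast markers, of the class richest in Cdkn1c, summed to 29.6 and 47.2 CPM in COP1 KO cells and 22.1 and 20.3 CPM in HET cells, but only 2 of the 6 were higher on average in COP1 KO cells. The 8 mural markers summed to 42.6 and 62.5 CPM in COP1 KO cells and 25.6 and 35.9 CPM in HET cells (5 of 8 higher), and the 8 oligodendrocyte precursor markers to 140 and 199 CPM in COP1 KO cells and 96.4 and 99.9 CPM in HET cells (5 of 8 higher), with Gpr17 at 0. Erythroid markers summed to 146 and 12.8 CPM in COP1 KO cells and 4.62 and 5.62 CPM in HET cells (5 of 7 higher), the highest in the library that led for Cdkn1c. The 5 other lists (cortical interneuron, striatal projection neuron, Cajal-Retzius, microglia, and choroid plexus and ependyma) overlapped between the genotypes. The median cell had 5229 and 5905 UMIs in the COP1 KO libraries and 5955 and 6756 in the HET libraries. The part of these markers and of depth in the changes of Cdk6, Ccnd1, Ccnd2, Cdkn1a and Cdkn1c was not tested.

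Counted over cells, each thinned to 2000 UMIs, the share of radial glia-like cells with a Cdk6 UMI was 16.4% and 25.2% in COP1 KO libraries, against 30.8% and 27.0% in HET libraries. The share with a Ccnd1 UMI was 20.7% and 21.9% in COP1 KO libraries and 17.2% and 19.6% in HET libraries, beside 0.83% to 1.25% in excitatory neuron-like cells, whose Ccnd1 level is low. The exact 95% intervals overlapped between the genotypes for Ccnd1, while for Cdk6 the COP1 KO replicate 1 interval (12.8% to 20.6%) lay below both HET intervals. Without thinning, the mean shares with a Cdk6 UMI were 39.6% in COP1 KO and 59.0% in HET radial glia-like cells. Cdkn1a UMIs were found in 1.59% and 2.43% of thinned COP1 KO cells and in 0.36% and 1.35% of thinned HET cells, no more than 1 to 8 cells a library and within the range of excitatory neuron-like cells (0.69% to 1.67%) for all but 2 libraries, so no order is read from them. Intervals cover counting error only.

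The genotypes were next compared within mitotic states of radial glia-like cells, where Ccnd1 passed in 1 state and Cdk6 in both. Radial glia-like barcodes were split by a list of 24 G2/M genes, none of them among the 10, with "G2/M-high" meaning at least 3 UMIs of the list after thinning to 2000 UMIs. Of all genes tested, 2.8% passed between genotypes among G2/M-high barcodes and 1.88% among the others. G2/M-high barcodes made up 42.7% and 45.0% of radial glia-like cells in COP1 KO libraries and 53.8% and 51.4% in HET libraries. Among G2/M-high barcodes, Ccnd1 had 151 and 165 CPM in COP1 KO cells, against 68.9 and 98.3 CPM in HET cells (log2 change 0.96, SE 0.16, edgeR adjusted p = 0.0051). Among the other barcodes, it had 116 and 125 CPM in COP1 KO cells and 143 and 120 CPM in HET cells, which overlapped (log2 change −0.08, SE 0.16, edgeR adjusted p = 0.93). The difference between these genotype effects was a log2 value of 1.03 (SE 0.21, edgeR adjusted p = 0.033, called beside 0.0375% of 10669 genes), but its adjusted p was 0.0601 with RLE normalization, and it passed with only 1 of the 4 libraries left out, COP1 KO replicate 1. In HET radial glia-like cells Ccnd1 was thus lower among G2/M-high than among other barcodes in both libraries, and in COP1 KO cells higher in both.

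Ccnd2 followed Ccnd1 in part. In G2/M-high radial glia-like barcodes it had 2092 and 1689 CPM in COP1 KO cells and 1245 and 1292 CPM in HET cells (log2 change 0.63, SE 0.11, edgeR adjusted p = 0.0064). In the other barcodes it had 1842 and 1597 CPM in COP1 KO cells and 1687 and 1298 CPM in HET cells, with overlapping libraries (log2 change 0.25, edgeR adjusted p = 0.38), though it passed there without COP1 KO replicate 2 or HET replicate 1 (adjusted p = 0.045 and 0.0025). The difference between these effects did not pass (log2 0.36, SE 0.10, edgeR adjusted p = 0.30). Cdk6 was lower in COP1 KO cells in both states, at 140 and 138 CPM against 203 and 213 CPM in HET among G2/M-high barcodes (log2 change −0.53, SE 0.11, edgeR adjusted p = 0.016) and at 93.8 and 101 CPM against 172 and 187 CPM in HET among the other barcodes (log2 change −0.84, SE 0.15, edgeR adjusted p = 0.0058). With DESeq2 neither passed (adjusted p = 0.451 and 0.179), and among G2/M-high barcodes the call was lost without either HET library. The 9 intermediate progenitor markers summed to 478 and 543 CPM in COP1 KO and 715 and 676 CPM in HET G2/M-high barcodes (2 of 9 higher in COP1 KO). Among the other barcodes they summed to 1489 and 1672 CPM in COP1 KO and 1918 and 1892 CPM in HET (3 of 9 higher). Their part in the Cdk6 changes by state was not tested. Cdkn1c passed among the other barcodes, where it had 66 and 26 UMIs (60.1 and 25.2 CPM) in COP1 KO cells and 11 and 11 UMIs (16.0 and 11.7 CPM) in HET cells (log2 change 1.70, SE 0.42, edgeR adjusted p = 0.048). Without COP1 KO replicate 1 that change was 0.91, with an adjusted p of 0.62. In G2/M-high barcodes Cdkn1c had 12.4 and 19.7 CPM in COP1 KO cells and 18.996 and 15.3 CPM in HET cells.

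The 2 clusters of the radial glia-like class, cluster 15 with the higher level of Cdkn2c and cluster 10 with the lower, gave values of the same kind, with 2.1% and 2.4% of all genes called. In cluster 15, Ccnd1 had 142 and 173 CPM in COP1 KO cells and 70.2 and 102 CPM in HET cells, and it rose with Ccnd2 (log2 changes 0.91 and 0.68, edgeR adjusted p = 0.014 and 0.0064). In cluster 10, Ccnd1 had 127 and 123 CPM in COP1 KO cells and 126 and 113 CPM in HET cells, with a log2 change of 0.12 (edgeR adjusted p = 0.84). Cdk6 fell in COP1 KO cells in both, by 0.50 on the log2 scale in cluster 15 (edgeR adjusted p = 0.038) and by 0.83 in cluster 10 (edgeR adjusted p = 0.0015). Cdkn1a, too low to be tested in cluster 15, rose in cluster 10, with 31 and 19 UMIs (23.8 and 15.9 CPM) in COP1 KO cells and 3 and 4 UMIs (3.46 and 3.54 CPM) in HET cells (log2 change 2.52, edgeR adjusted p = 0.0088). With DESeq2 the adjusted p was 0.109 for Cdk6 and 0.386 for Cdkn1a in cluster 10 and 0.0984 for Ccnd1 and 0.828 for Cdk6 in cluster 15, so these calls rest on the edgeR test. Leaving out 1 library also ended the Cdkn1a call (COP1 KO replicate 1, adjusted p = 0.189), the Ccnd1 call (COP1 KO replicate 2, adjusted p = 0.130) and the cluster 15 call of Cdk6 (3 of 4 libraries). The splits by state and by cluster share cells and were added after the class values were seen.

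**Figure D3:**
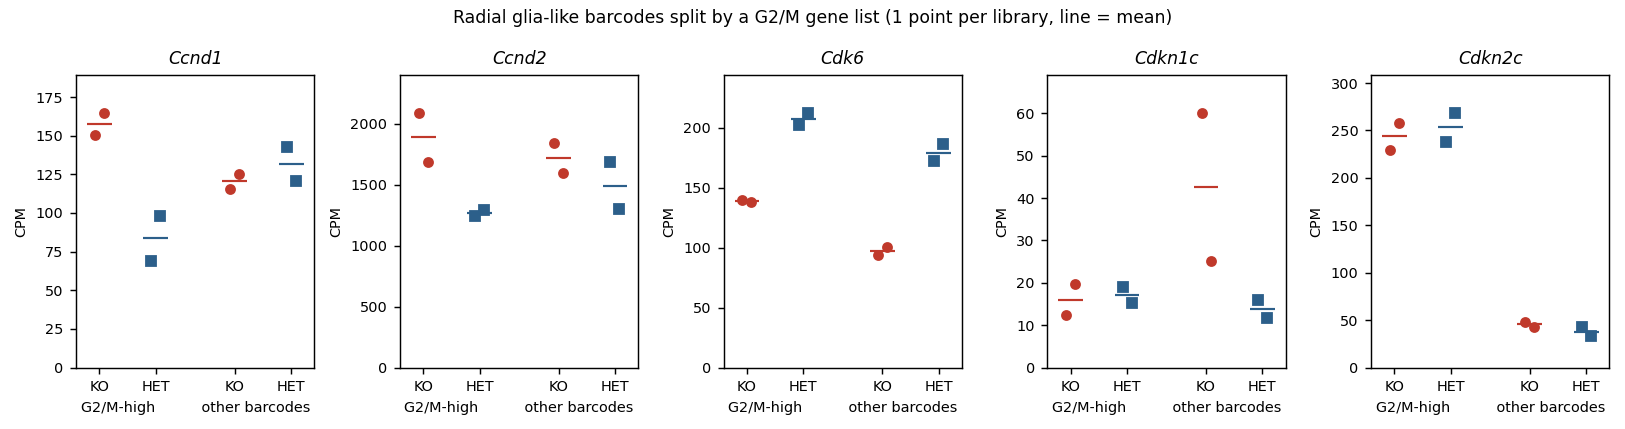
Levels (CPM, axes from 0) of 5 genes in radial glia-like barcodes that are G2/M-high and in the other barcodes, COP1 KO left of HET in each, 1 point per library and a line at the mean. The Ccnd1 libraries of the genotypes are apart among G2/M-high barcodes and overlap among the others, Cdk6 is lower in COP1 KO in both states, and Cdkn2c is higher among G2/M-high barcodes in all 4 libraries.

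Mitotic state by itself marked some of the 10 genes in every progenitor class, tested with the library as a block over all 4 libraries. Cdkn2c, the p18 inhibitor, had the largest change: in radial glia-like cells it had 229 and 258 CPM (COP1 KO) and 238 and 269 CPM (HET) among G2/M-high barcodes, against 48.3 and 42.7 CPM (COP1 KO) and 42.3 and 33.0 CPM (HET) among the other barcodes. Its log2 change with state was 2.63 (SE 0.11, edgeR adjusted p = 8.3e-22) there, 2.98 in intermediate progenitor-like cells, with cluster 19 included, and 3.67 in ganglionic eminence progenitor-like cells, and it was higher in 4 of 4 libraries in each class. Cdk6 was also higher in G2/M-high barcodes in each class, by 0.39, 0.72 and 0.83 on the log2 scale in the same order (edgeR adjusted p = 0.00082, 2.8e-07 and 2.2e-06), and so was Rb1, by 0.59, 0.82 and 0.61 (edgeR adjusted p = 0.011, 0.00025 and 0.027). Against barcodes with 0 UMIs of the G2/M and S phase lists, the Rb1 value in radial glia-like cells was −0.19 (edgeR adjusted p = 0.81), and in ganglionic eminence progenitor-like cells its call was lost without 3 of the 4 libraries in turn. These counts stand beside large backgrounds: 26.0%, 36.0% and 33.3% of all genes tested passed in the 3 classes, against 4 of 10, 6 of 9 and 6 of 10 of the genes followed here.

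Cdkn1c moved the other way in intermediate progenitor-like cells. There it had 43.0 and 68.8 CPM (COP1 KO) and 72.3 and 54.3 CPM (HET) among G2/M-high barcodes, against 213 and 233 CPM (COP1 KO) and 126 and 279 CPM (HET) among the other barcodes. It was lower in G2/M-high barcodes in 4 of 4 libraries (log2 change −1.71, SE 0.16, edgeR adjusted p = 2.1e-14). In radial glia-like and ganglionic eminence progenitor-like cells its log2 changes were −0.68 and −0.45 and did not pass (edgeR adjusted p = 0.060 and 0.053). Among G2/M-high radial glia-like barcodes Cdkn1c was lower in both COP1 KO libraries (12.4 and 19.7 against 60.1 and 25.2 CPM). It was higher in both HET libraries (18.996 and 15.3 against 16.0 and 11.7 CPM). In ganglionic eminence progenitor-like cells it was higher in 1 of 4 libraries. Ccnd1 passed in intermediate progenitor-like cells only (log2 change 0.85, edgeR adjusted p = 0.0022), a call lost without HET replicate 1 (log2 change 0.33, adjusted p = 0.32), and no test compared the classes. Ccnd2 passed in intermediate progenitor-like and ganglionic eminence progenitor-like cells, by 0.30 and 0.22 on the log2 scale, and Cdk4 in the last of these, by 0.24. Cdkn1b passed in radial glia-like and ganglionic eminence progenitor-like cells, by 0.27 and 0.59, the first lost without 3 of the 4 libraries in turn, and Ccnd3 and Cdkn1a in no class. Beside them Ccna2, the cyclin of S and G2 phase, rose by 5.18 on the log2 scale in radial glia-like cells. Of the other inhibitors, Cdkn2d, the INK4 gene for p19, rose by 2.47 and Cdkn3, which encodes a CDK phosphatase, by 4.47 there.

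**Figure D4:**
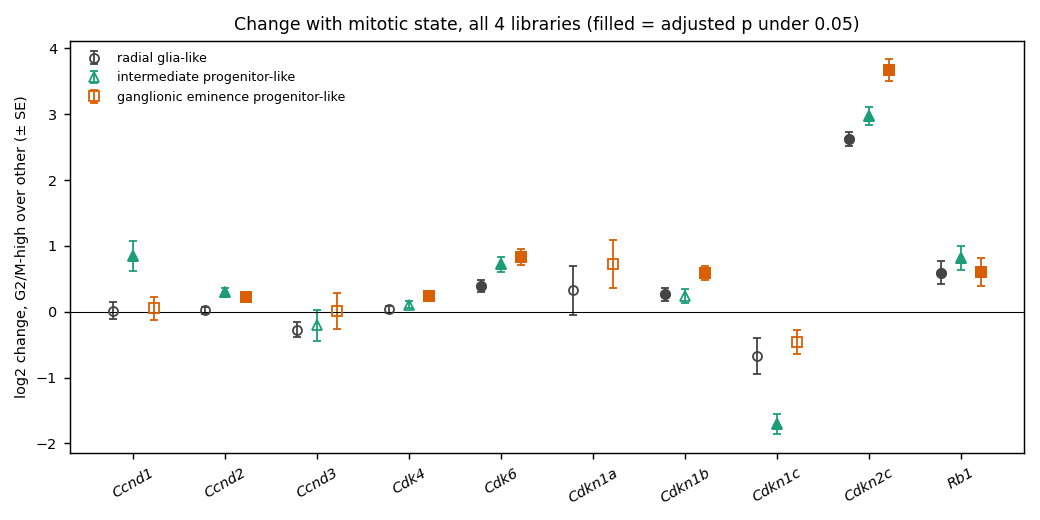
Log2 change of each gene between G2/M-high and other barcodes in 3 progenitor classes (points with SE, 4 libraries, library as a block), filled where the edgeR adjusted p was under 0.05. Cdkn2c lies between 2.63 and 3.67, and the D cyclins lie between −0.27 and 0.30 but for Ccnd1 in intermediate progenitor-like cells. Cdkn1c is below 0 in each class but filled only in intermediate progenitor-like cells, and its libraries differed in direction in the other classes. Cdkn1a was not tested in intermediate progenitor-like cells.

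Outside radial glia-like cells, Ccnd2 in intermediate progenitor-like cells was the only value of the 10 genes that passed. Few genes of any kind passed in most of these classes, 0.0% in excitatory neuron-like, 0.112% in ganglionic eminence progenitor-like cells and 0.448% in cluster 19. It had 1719 and 1842 CPM in COP1 KO cells and 1219 and 1304 CPM in HET cells (log2 change 0.54, SE 0.09, edgeR adjusted p = 0.011), 1 of 9 genes tested beside 0.499% of all genes in that class. Its adjusted p was 0.0513 with DESeq2 and 0.0720 with clusters built without the 10 genes and the cell cycle genes. Other markers moved beside it in intermediate progenitor-like cells. The 12 radial glia markers summed to 4300 and 4463 CPM in COP1 KO cells and 3347 and 3396 CPM in HET cells (6 of 12 higher), and the 11 excitatory neuron markers, of a class low in Ccnd2, to 3236 and 3261 CPM in COP1 KO cells and 3605 and 3652 CPM in HET cells (3 of 11 higher). Of 17 S phase genes tested there among 21, 16 had a log2 change above 0 (median 0.46, beside −0.002 over all genes). The 1 that passed was Chaf1b, with 52.6 and 66.4 CPM in COP1 KO cells and 20.2 and 22.9 CPM in HET cells (log2 change 1.48, SE 0.32, edgeR adjusted p = 0.047). Of 12 E2F target genes tested among 14, which share genes with that list, 11 were above 0 (median 0.43) and none passed. The part of these markers and lists in the Ccnd2 change was not tested. In cluster 19, Ccnd2 had 1719 and 2121 CPM in COP1 KO cells and 1690 and 1915 CPM in HET cells, which overlapped. In ganglionic eminence progenitor-like cells, where Ccnd2 is highest, it had 5147 and 4208 CPM in COP1 KO cells and 4887 and 5249 CPM in HET cells (log2 change −0.07, SE 0.11, edgeR adjusted p = 0.93). Over the 14 classes and clusters compared, Ccnd2 was above HET in both COP1 KO libraries in 7 and below in none, beside 2.06% of 16977 genes with 7 or more and none below. The 7 include cluster 21, where Ccnd2 was too low to be tested. The 16977 genes are those tested over whole libraries, and a gene without counts in a class cannot score there.

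Ccnd1 in oligodendrocyte precursor-like cells had 532 and 471 CPM in COP1 KO cells, against 180 and 310 CPM in HET cells. The libraries did not overlap, with a log2 change of 1.002 (SE 0.23), but the edgeR adjusted p was 0.18, in a class where 0.182% of all genes passed. This class held 118 and 141 COP1 KO cells and only 36 and 37 HET cells, and it held 39.4% and 41.5% of all Ccnd1 UMIs of the COP1 KO libraries, against 9.40% and 13.2% in the HET libraries. The 5 choroid plexus and ependyma markers summed to 20.6 and 10524 CPM in its COP1 KO cells and to 61641 and 19.2 CPM in its HET cells. Without the cells in which that list took 1% or more of the counts, 118 and 138 COP1 KO cells and 32 and 37 HET cells remained, and Ccnd1 had 532 and 483 CPM in COP1 KO and 252 and 310 CPM in HET (log2 change 0.86, SE 0.17, edgeR adjusted p = 0.080, where 0.445% of all genes passed). With DESeq2 the adjusted p was 0.048 in all cells of the class and 0.030 without those cells, and the edgeR test on all cells passed without COP1 KO replicate 2 (adjusted p = 0.0095) or HET replicate 2 (adjusted p = 0.011). A Ccnd1 UMI was found in 52.6% and 50.4% of these cells in COP1 KO libraries and in 30.6% and 43.2% in HET libraries, each cell thinned to 2000 UMIs, with overlapping intervals.

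Cdkn1b showed the widest like pattern without a single call. Both COP1 KO libraries lay below both HET libraries in 8 of the 14 classes and clusters and above in none, beside 1.53% of 16977 genes with 8 or more. In excitatory neuron-like cells, the largest class, it had 73.4 and 70.6 CPM in COP1 KO cells and 101 and 85.9 CPM in HET cells (log2 change −0.35, SE 0.09, edgeR adjusted p = 0.45). In cluster 19 it had 173 and 144 CPM in COP1 KO cells and 226 and 221 CPM in HET cells (log2 change −0.44, SE 0.15, edgeR adjusted p = 0.30). Radial glia-like and oligodendrocyte precursor-like cells were not among the 8. The classes of a library come from 1 preparation, so they are not independent of each other. Cdk4 was above HET in both COP1 KO libraries in 8 of 14, and below in cluster 1, beside 1.90% of genes above in 8 or more, with no test passed in any of them. Ccnd1 was above in 6, beside 5.31% of genes above in 6 or more, and Cdkn1a and Cdkn2c in 5, beside 9.61% in 5 or more. The 6 include Cajal-Retzius-like cells, striatal projection neuron-like cells and cluster 21, where Ccnd1 was too low to be tested. Other genes were also too low to be tested in some classes counted, such as Cdkn2c in clusters 17 and 21. Ccnd3 and Rb1 were above in 3, beside 31.8% in 3 or more. Ccnd3 was below in 4, beside 26.7% of genes below in 4 or more, and Cdk6, Cdkn1c and Rb1 in 3, beside 43.3% in 3 or more. In all, 66.1% of genes were above in at least 1 class or cluster and below in at least 1 other. All these shares are over the 16977 genes tested over whole libraries. Single classes tested 5430 to 14023 genes, and a gene without counts in a class cannot score there. The shares may thus understate how common such patterns are among genes detected in every class.

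**Figure D5:**
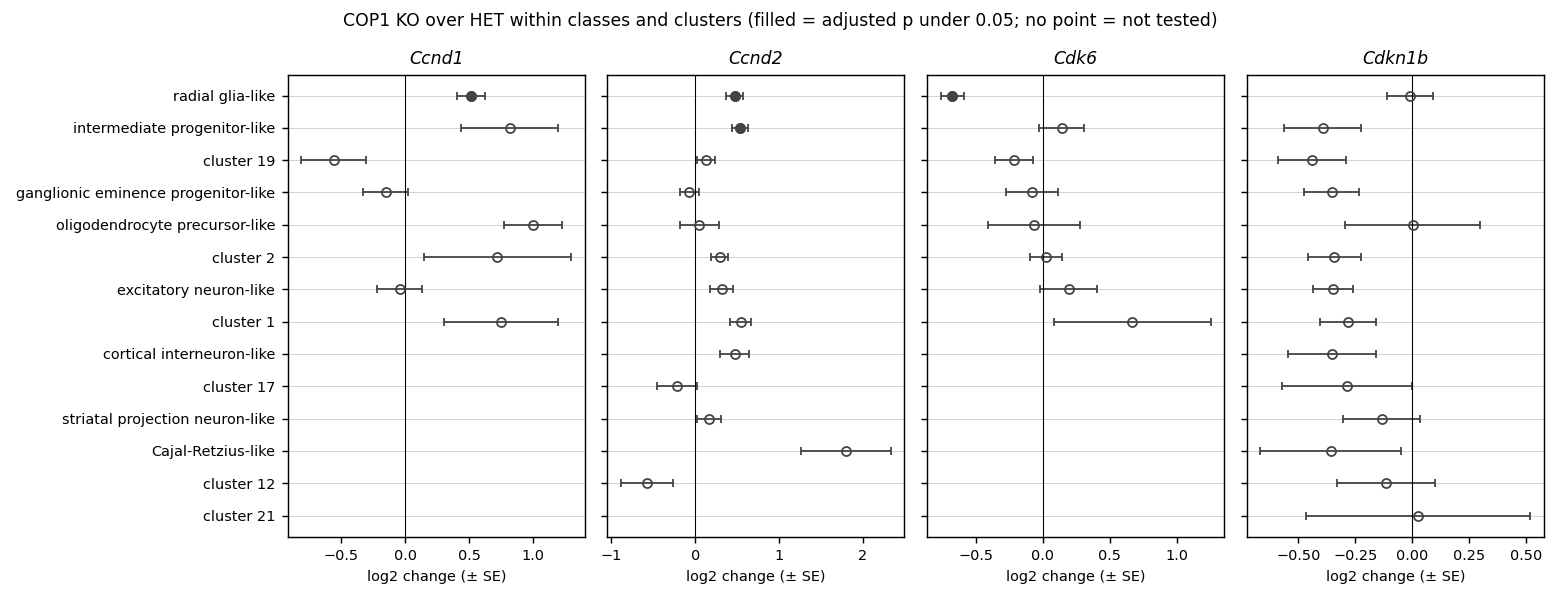
Log2 change of COP1 KO over HET (points with SE) for 4 genes in 14 classes and clusters, filled where the edgeR adjusted p was under 0.05 and with no point where the gene was too low to be tested. Cdk6 is filled only in radial glia-like cells and Ccnd2 in radial glia-like and intermediate progenitor-like cells, and the points of Cdkn1b lie below 0 in most classes with none filled.

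Whether a genotype effect differed between classes was tested directly. Against excitatory neuron-like cells, the log2 effect in radial glia-like cells differed by −0.86 for Cdk6 (SE 0.23, edgeR adjusted p = 0.036) and by 0.96 for Cdkn1c (SE 0.22, edgeR adjusted p = 0.0080), 2 of 10 genes beside 2.29% of all. In excitatory neuron-like cells Cdk6 had 3.8 and 4.2 CPM in COP1 KO and 4.1 and 3.1 CPM in HET. For Cdkn1a the difference was 1.57 (edgeR adjusted p = 0.053). Against intermediate progenitor-like cells, the Cdk6 effect differed by −0.83 (SE 0.16, edgeR adjusted p = 0.00029, beside 0.496% of all genes), with Cdk6 at 195 and 298 CPM in COP1 KO and 247 and 211 CPM in HET intermediate progenitor-like cells. Against cluster 19 no gene of the 10 passed, where 0.174% of all genes did. For Cdk6 that difference was −0.46 (edgeR adjusted p = 0.33). The compared classes differed in mitotic genes. Of the 24 G2/M genes, 24 passed the filter on low counts in radial glia-like cells. Only 1 did in intermediate progenitor-like cells, from which cluster 19 was kept apart. The part of mitotic state in the Cdk6 difference was not tested. The Cdk6 difference from excitatory neuron-like cells was lost with any 1 library left out, that of Cdkn1c with any but COP1 KO replicate 2, and that from intermediate progenitor-like cells with any but HET replicate 1.

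Summed over whole libraries, none of the 10 genes passed the edgeR test, in which 0.0118% of all 16977 genes did. At an unadjusted p under 0.05, 5 of the 10 did, beside 1786 of all genes. Ccnd1 had 41.9 and 43.0 CPM in COP1 KO libraries, against 20.7 and 27.4 CPM in HET libraries (log2 change 0.84, SE 0.14, edgeR adjusted p = 0.19). With DESeq2 it was the 1 member called (adjusted p = 0.00010), and with edgeR it passed without COP1 KO replicate 2 (adjusted p = 0.022). Ccnd2 had 630 and 543 CPM in COP1 KO libraries and 415 and 507 CPM in HET libraries, and Cdkn1b had 83.4 and 84.7 CPM in COP1 KO libraries and 111 and 97.1 CPM in HET libraries (log2 changes 0.37 and −0.28, edgeR adjusted p = 0.44 and 0.34). These sums also carry the larger number of oligodendrocyte precursor-like and ganglionic eminence progenitor-like cells in the COP1 KO libraries.

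Of the other pathway lists in radial glia-like cells, 4 held a gene that passed and 4 held none, beside 3.07% of all genes. Of 12 other cyclins and kinases of G1 and S entry, 1 rose and none fell. It was Cables1, which encodes a CDK-binding adaptor, with 17.9 and 14.9 CPM in COP1 KO cells and 4.6 and 5.6 CPM in HET cells (log2 change 1.70, SE 0.33, edgeR adjusted p = 0.023). None of 12 pocket proteins and E2F factors and none of 14 E2F target genes passed, with median log2 changes of −0.12 and −0.05 beside −0.002 over all genes. Of 10 p53 targets tested among 13, only Plk2, a polo-like kinase gene, passed, with 53.8 and 65.0 CPM in COP1 KO cells and 27.2 and 35.0 CPM in HET cells (log2 change 0.97, SE 0.18, edgeR adjusted p = 0.020). The median of these targets was 0.18.

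Of 16 mitogen-side regulators tested among 17, which include receptors and pathway genes of FGF, WNT and Hedgehog signalling, none rose and 1 fell. It was Mycn, a MYC-family gene of neural progenitors, with 173 and 178 CPM in COP1 KO cells and 269 and 263 CPM in HET cells (log2 change −0.56, SE 0.08, edgeR adjusted p = 0.0053). All 24 G2/M genes had a log2 change below 0 in radial glia-like cells, with a median of −0.34, and 2 passed beside 3.07% of all genes, Top2a and Aurkb, a topoisomerase and a mitotic kinase (log2 changes −0.42 and −0.47, edgeR adjusted p = 0.021 and 0.034). None of 21 S phase genes passed (median −0.09). The share of G2/M-high barcodes in this class, lower in both COP1 KO libraries, is counted from the same 24 genes and is not a separate observation. The other inhibitors Cdkn2d and Cdkn3, the only 2 of 4 tested, did not pass. In oligodendrocyte precursor-like cells the G2/M list ran the other way, with all 24 above 0, a median of 1.09, and 2 past the threshold beside 0.182% of all genes, Ube2c and Cdca3 (log2 changes 1.42 and 1.32, edgeR adjusted p = 0.034 and 0.047).

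In ganglionic eminence progenitor-like cells none of these lists held a gene that passed, and the G2/M-high share was 55.3% and 53.9% in COP1 KO libraries and 48.2% and 56.7% in HET libraries. In intermediate progenitor-like cells, cluster 19 included, that share was 43.2% and 37.3% in COP1 KO libraries and 39.2% and 32.3% in HET libraries. The libraries of the genotypes overlapped in both classes. With 2 libraries a genotype the smallest two-sided p of an exact permutation test is 0.333, so these shares were not tested.

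Across 25 clusters of at least 50 cells, with the 4 libraries summed, the genes whose levels ran most like each of the 10 were listed by Pearson's correlation of log2(CPM + 10), as a description. Cdkn2c ran with Nde1, Spc24 and Tacc3 (r = 0.99, 0.98 and 0.98), which encode proteins of the mitotic spindle and kinetochore. Cdk6 ran with Fxr1, Zfp91 and Mcm2 (r = 0.95, 0.92 and 0.92), the last a subunit of the replicative helicase. Ccnd3 ran with Lamb2, Ppic and Creb3l2 (r of 0.94 to 0.95), the first a laminin of basement membranes. Ccnd2 ran with H2afv, Ddx46 and Exosc3 (r = 0.94, 0.94 and 0.93). Cdkn1c, Cdkn1a and Rb1 had no gene above 0.82, 0.86 and 0.76. The clusters share libraries and were built partly from these genes.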

How the data were processed

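Per the labels' protocols, cortex was dissociated with papain and the 10x Chromium 3′ chemistry (version 2) was used, with 1 HiSeq4000 lane a library. The deposited tables of the authors hold raw whole-number counts of each gene in each barcode. Per the submitters' processing notes the aligner was GSNAP and the build GRCm38 (mm10). Not given in the sources used here are the counter, the annotation, strand use and UMI collapsing. No other column of per-sample values was present.

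From the 19237 barcodes, those with under 500 genes (222) or over 10% mitochondrial counts (1) were removed, and 58 copies of identical gene rows were dropped. The automatic doublet threshold marked 61 barcodes (0.32%), so a doublet score of 0.25 was used instead, which removed 231. Clustering used 2000 variable genes, 30 principal components, 15 neighbours and Leiden resolution 1.0 (scanpy 1.11.5, leidenalg 0.10.2), without integration. A class needed a marker score of 0.5, a margin of 0.3 and 3 markers in 10% of cells. The thresholds for doublets and names were chosen with the data in view. Classes with at least 20 cells in each library were compared between the genotypes, while the levels across classes also cover smaller classes.

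Counts were summed per library and class and tested with edgeR 4.0.16 (quasi-likelihood, TMM, filterByExpr), with Benjamini-Hochberg adjustment over all genes of the fit and a threshold of 0.05. The SE is the log2 change divided by the root of F. Tests of mitotic state and of differences between classes held the library as a block. Intervals of shares are exact binomial at 95%. The procedure was checked on simulated data. The 10 genes and the lists were chosen with earlier results of these data known. All 10 are named, with members of pathway lists that passed between the genotypes in a class described. Of list members that passed by mitotic state, only some are named. The 3 genes of most like pattern are named for Cdkn2c, Cdk6, Ccnd3 and Ccnd2. Alternatives were RLE scaling, no low-count filter, DESeq2 1.42.0, each library left out, doublets kept, other clusters, other thinning, and another cut and another comparison set for mitotic state.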

Additional observations from a re-analysis of the deposited data

Results flagged for a closer look

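The genotype effect differed between classes or states, by a test of the difference itself, for 4 values. For Cdk6 the effect in radial glia-like cells minus that in excitatory neuron-like cells was −0.86 on the log2 scale, and minus that in intermediate progenitor-like cells −0.83. For Cdkn1c the first of these differences was 0.96. For Ccnd1 the effect in G2/M-high minus that in other radial glia-like barcodes was 1.03. Each of these calls was lost with at least 3 of the 4 libraries left out in turn.

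For 8 genes, both COP1 KO libraries lay above both HET libraries in some of the 14 classes and clusters and below both in others, and the difference between those classes was not tested. Such a mixed pattern was found in 66.1% of 16977 genes, so it sets none of the 8 apart. Of all genes, 1.9% were above in 8 or more, 5.31% in 6 or more, 9.61% in 5 or more and 31.8% in 3 or more, while 43.3% were below in 3 or more and 26.7% in 4 or more. These shares include genes without counts in some classes, which cannot score there. Ccnd1 was above in 6, some of them classes where it was too low to be tested, and below in 1, cluster 19. Cdk4 was above in 8 and below in 1, cluster 1. Cdkn1a was above in 5 and below in 1, cluster 12. Cdkn2c was above in 5 and below in 2, radial glia-like and striatal projection neuron-like cells. Ccnd3 was above in 3 and below in 4, Cdkn1c above in 2 and below in 3, Rb1 above in 3 and below in 3, and Cdk6 above in 1, cluster 17, and below in 3.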

How the results depend on the processing

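No paired analysis was possible because the labels give the libraries no replicate numbers, and the numbers used here follow deposit order and only name a library. Of 321 alternatives to 44 tests of single members, 253 kept direction and call, 47 lost a call, 18 gained one and 3 changed sign. The sign changed for Ccnd1 in radial glia-like cells with G2/M-high barcodes left out (−0.077), for Rb1 by state in radial glia-like cells against barcodes with 0 G2/M and S phase UMIs (−0.19), and for Ccnd1 among the other radial glia-like barcodes, between −0.20 and 0.04 with 1 library left out. Of these, Ccnd1 in all radial glia-like cells (0.51, edgeR adjusted p = 0.032) and Rb1 by state against all other barcodes (0.59, edgeR adjusted p = 0.011) had passed, and neither passed under the alternative named. Ccnd1 among the other barcodes passed in neither. Both Ccnd1 entries rest on the same barcodes, those left after G2/M-high barcodes are taken out, so they are not separate observations. The tested difference of Ccnd1 between the states is given above. The cause of the sign changes was not tested.

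Counts of called genes moved more. Over whole libraries 2 genes were called, against 1 with no filter, 173 with DESeq2, 1 with doublets kept and 0 to 1151 with 1 library left out, and of the 10 genes 0, against 1 with DESeq2 and 0 to 2. In radial glia-like cells 356 genes were called, against 840 with no filter, 167 with DESeq2, 186 without G2/M-high barcodes and 301 to 974 with 1 library left out, and of the 10 genes 4, against 2 with DESeq2, 2 without G2/M-high barcodes and 3 to 5. For radial glia-like against excitatory neuron-like cells 333 genes were called, against 127 to 297, and of the 10 genes 2, against 0 to 1. By state, 1459 genes were called in radial glia-like and 2014 in intermediate progenitor-like cells against the 0-UMI barcodes. With 5 UMIs in place of 3, G2/M-high shares averaged 39.6% in COP1 KO and 47.2% in HET radial glia-like cells and 50.6% in COP1 KO ganglionic eminence progenitor-like cells. The ratio of Cdkn1a shares in radial glia-like cells, COP1 KO over HET, was 2.36 at 2000 UMIs and 7.86 at 3000. With 1 library left out, the lone library of its genotype is assumed to vary like the others. Depth limits Cdkn1a and Cdkn1c in radial glia-like cells, at 6 to 80 UMIs a library.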
